A study of Homo sapiens with 12 samples.

Results

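In control DCIS.COM cells, 2311 genomic regions were bound in the BCL9 ChIP-exo libraries, had no matching region of STAT3 phosphorylated at S727 (pSTAT3), and lay more than 1 kb from every transcription start site (TSS) of a protein-coding gene. They were chosen from the deposited peak lists by 100 bp windows round the peak midpoints. Windows were merged for each antibody, a region was kept with windows from at least 2 of the 3 control libraries, and a BCL9 region was taken when it shared no base with a pSTAT3 region. The 2311 regions were 19.9% of 11623 control BCL9 regions, and are called unshared distal regions here. A further 8113 distal BCL9 regions (69.8%) overlapped 1 of 37044 control pSTAT3 regions and are called shared distal regions. Because the windows of the 6 control libraries chose the regions, the control BCL9 and control pSTAT3 values given for them are descriptions.

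DCIS.COM is an established basal-like human breast cell line that forms lesions resembling ductal carcinoma in situ. BCL9 KD cells carried a lentiviral PLKO.1 shRNA against BCL9, with 1 hairpin, and control cells (NS, labelled as non-scrambled control) carried a PLKO.1 non-silencing shRNA. The libraries were 2 BCL9 and 2 pSTAT3 libraries from BCL9 KD cells, and 3 BCL9, 3 pSTAT3 and 1 CTCF library from control cells, from cultures labelled as biological replicates. The loss of BCL9 itself cannot be read from peak lists, nor can the identity of the cells be checked by marker expression.

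BCL9 is a co-activator of the Wnt pathway that links β-catenin, bound to TCF/LEF factors on DNA, to the Pygopus proteins, and it does not bind DNA by itself. STAT3 is a transcription factor downstream of cytokine receptors, and serine phosphorylation tunes its activity beside the tyrosine phosphorylation that lets it dimerise. Sites far from promoters are often enhancers, which are opened and marked by combinations of factors such as AP-1, C/EBP, TEAD, RUNX, AP-2 and Grainyhead-like (GRHL) proteins in epithelial cells.

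ChIP-exo trims immunoprecipitated DNA with lambda exonuclease up to the crosslinked protein, so that a bound site gives a pair of peaks, 1 on each strand. The lists held 24728 to 493174 peak pairs per library, with the shortest from control BCL9 replicate 2 and the longest from KD pSTAT3 replicate 2. The listed signal was converted to tags by the unit step of each library, and the weakest pair of a list held 3 to 9 tags. List length therefore set how often a region could have a window, and shares are given for the full lists and for lists cut to their 24728 strongest peak pairs, where the last pair held 5 to 60 tags. The number of reads behind each list was not used here, and exact Clopper-Pearson 95% intervals cover counting error only.

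The DNA of 7 unshared distal regions is shown to give an example of each factor string. They were taken string by string as the region with the strongest control BCL9 signal that was not yet taken, among regions bound in all 3 control BCL9 libraries whose central bases occur once in the genome. Each line is the central 100 bp, 5′ to 3′ on the plus strand of GRCh37 (hg19), and capitals mark the strings named here, on either strand. The region upstream of PCDHB1, a clustered protocadherin gene, carried a C/EBP string (TTGCNNAA) and a RUNX string (TGTGGT), and that in NEMP2, which encodes a nuclear envelope protein, a C/EBP and a TEAD string (GGAATG). The intronic region of ROBO1, a Slit receptor, had a RUNX string, and the region nearest PDHX, a component of the pyruvate dehydrogenase complex, a GRHL string (AACAGGTT, AACCGGTT or AACTGGTT). The region nearest MXRA7 showed an AP-2 string (GCCNNNGGC). That nearest STIM2 had a C/EBP string and a C/EBP-ATF composite string (TGATGCAA). The intronic region of SLC39A11, a zinc transporter gene, held the AP-1 string (TGANTCA with C or G at N).
PCDHB1 region, chr5:140420633-140420732: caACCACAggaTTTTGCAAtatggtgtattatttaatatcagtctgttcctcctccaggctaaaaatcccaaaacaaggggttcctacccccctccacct
NEMP2 region, chr2:191393447-191393546: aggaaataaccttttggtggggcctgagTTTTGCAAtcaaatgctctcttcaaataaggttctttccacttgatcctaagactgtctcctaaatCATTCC
ROBO1 region, chr3:78750909-78751008: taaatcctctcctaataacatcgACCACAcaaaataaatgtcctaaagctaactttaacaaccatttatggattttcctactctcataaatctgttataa
PDHX region, chr11:35078219-35078318: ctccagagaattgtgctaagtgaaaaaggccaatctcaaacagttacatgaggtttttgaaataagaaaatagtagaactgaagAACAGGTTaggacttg
MXRA7 region, chr17:74667893-74667992: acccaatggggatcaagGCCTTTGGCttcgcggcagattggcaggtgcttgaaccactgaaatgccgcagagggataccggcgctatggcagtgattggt
STIM2 region, chr4:27272086-27272185: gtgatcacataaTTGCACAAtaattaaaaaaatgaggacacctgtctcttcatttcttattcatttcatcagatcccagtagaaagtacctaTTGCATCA
SLC39A11 region, chr17:70680252-70680351: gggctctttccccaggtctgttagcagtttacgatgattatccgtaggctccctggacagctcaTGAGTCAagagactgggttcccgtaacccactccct

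Of the unshared distal regions, 306 (13.2%) had windows in all 3 control BCL9 libraries. Replicates 1 and 3 alone gave 1000 (43.3%), replicates 2 and 3 alone 865 (37.4%), and replicates 1 and 2 alone 140 (6.06%), so control BCL9 replicate 3, with 148755 peak pairs, took part in most of them. The median width was 169 bp (100 to 574) for unshared and 225 bp (up to 1432) for shared distal regions, with a median of 3 and 5 windows.

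The name of these regions as free of pSTAT3 held only in part. Of the 2311, 827 had no window in any control pSTAT3 library, 1372 had one in 1 library, 111 in 2 and 1 in 3, since windows of different libraries that do not touch each other form no pSTAT3 region. Control pSTAT3 replicate 3 had a window in 51.1% of the unshared distal regions, replicate 1 in 12.03% and replicate 2 in 5.93%. With lists cut to equal length these 3 shares were 2.77%, 0.0865% and 1.04%, but the last pair then held 19, 9 and 8 tags. At 9 or more tags in each list they were 20.6%, 0.303% and 0.995%. A window in any of the 5 cut pSTAT3 lists was present in 175 regions (7.57%). The median gap to the nearest control pSTAT3 region was 4095 bp, 596 (25.8%) lay within 500 bp of one and 138 over 100 kb away. At the border of the rule, 144 members lay within 50 bp of a pSTAT3 region, the closest at 1 bp, and 54 shared distal regions overlapped by under 20 bp. At the TSS limit, 103 members lay 1 to 2 kb from a TSS, the closest at 1001 bp, and the farthest promoter BCL9 region at 988 bp.

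In BCL9 KD cells, whose libraries had no part in choosing the regions, the BCL9 antibody still gave windows in many unshared distal regions, and so did the pSTAT3 antibody. KD BCL9 replicates 1 and 2 had a window in 41.0% and 61.6% of them, against 77.1% and 93.1% of shared distal regions. The difference between unshared and shared was a mean of -33.8 percentage points, negative in both libraries (two-sided exact permutation of signs over libraries, p = 0.5, the lowest value that 2 libraries allow), and it was -38.7 points with lists cut to equal length. It was -10.7 points when BCL9 and pSTAT3 regions both had to be present in all 3 control libraries of their antibody. KD pSTAT3 replicates 1 and 2 had a window in 62.4% and 67.0% of unshared distal regions, against 96.2% and 97.2% of shared ones.

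By region, 738 unshared distal regions (31.9%) had a window in both KD BCL9 libraries, 895 in 1 and 678 in neither, against a background of 63.9% of all control BCL9 regions with windows in both. Both KD pSTAT3 libraries had a window in 1139 (49.3%), against 80.9% of all control BCL9 regions. Neither KD pSTAT3 library had a window in 461 (19.9%), against 6.73% of all control BCL9 regions. Across all 5 BCL9 libraries, 188 regions (8.14%) had a window in each, out of 306 with one in all 3 control libraries. In none of the 5 pSTAT3 libraries was there a window for 290 (12.5%), out of 827 with none in the control libraries. The rule thus bounds both counts, and the same 2 shares were not taken over all control BCL9 regions.

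The order of the antibodies in BCL9 KD cells turned with list length. With the full lists, the mean share of unshared distal regions was 13.4 points lower with the KD BCL9 than with the KD pSTAT3 antibody (difference -13.4; exact permutation of 2 against 2 libraries, two-sided, p = 0.33, the lowest value possible). The KD BCL9 lists had 95586 and 336493 peak pairs and the KD pSTAT3 lists 415624 and 493174. With lists cut to equal length, KD BCL9 replicates 1 and 2 covered 21.5% and 16.7%, against 2.55% and 3.25% for KD pSTAT3 replicates 1 and 2, a difference of 16.2 points in the other direction (p = 0.33 by the same exact test). Both cut KD BCL9 lists thus lay above both cut KD pSTAT3 lists, and both full KD BCL9 lists below both full KD pSTAT3 lists. Equal length was not an equal tag limit, since the last pair held 10 and 12 tags in the cut KD BCL9 lists and 22 and 24 in the cut KD pSTAT3 lists. At 9 or more tags in each list, the same regions were covered at 27.9% and 31.5% by KD BCL9 and at 26.7% and 28.1% by KD pSTAT3.

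**Figure D1:**
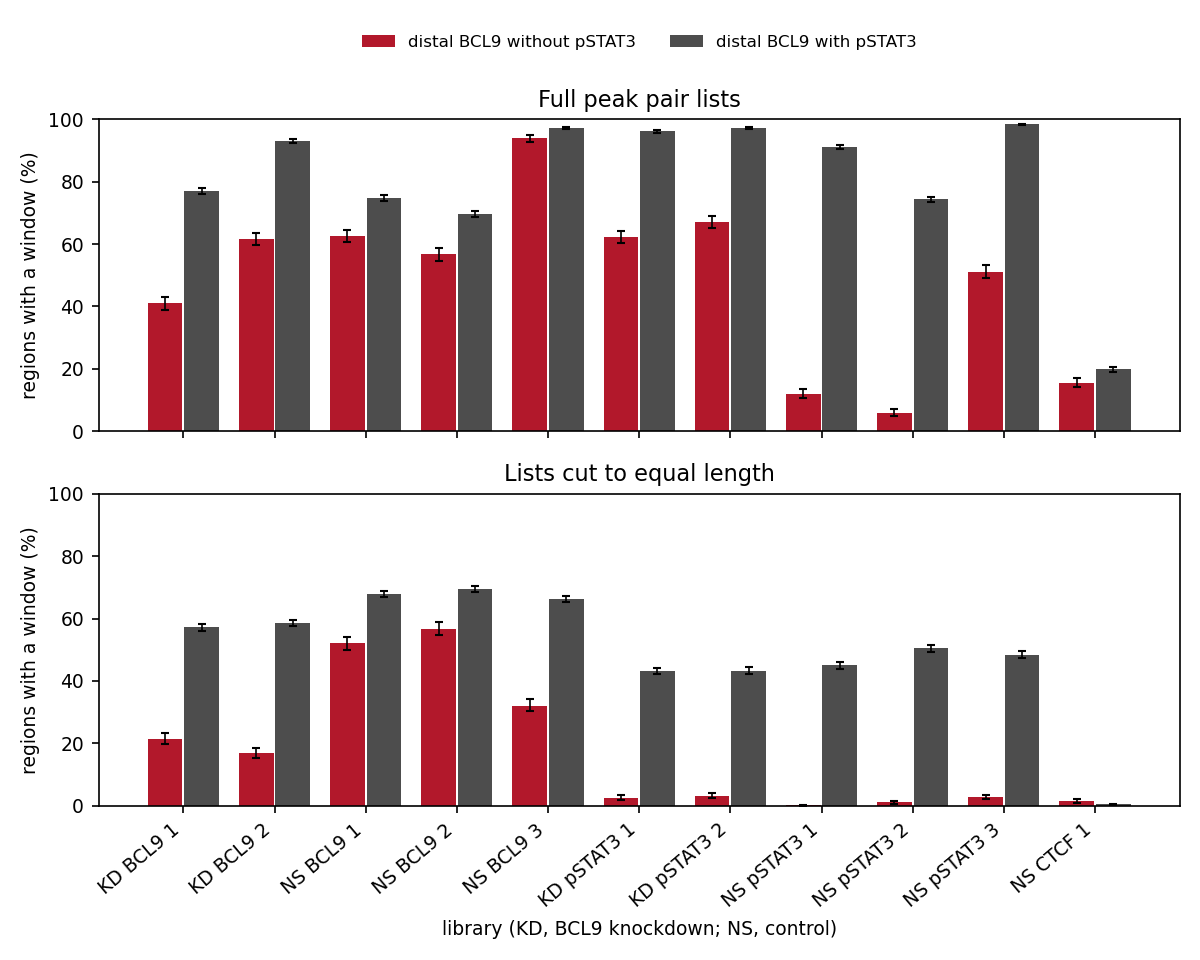
Share (%) of distal BCL9 regions without a pSTAT3 region (red, n = 2311) and with one (grey, n = 8113) that had a window in each of 11 libraries (KD, BCL9 knockdown; NS, control), for full lists and for lists cut to 24728 peak pairs; bars carry exact 95% intervals. In the cut lists the red bars of the 5 pSTAT3 libraries sit between 0.0865% and 3.25%, and those of the 2 KD BCL9 libraries at 21.5% and 16.7%.

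Knockdown and control BCL9 libraries cannot be compared directly on regions that the control libraries chose. The regions were therefore chosen again without 1 control BCL9 library at a time, and that library was scored beside the KD libraries with lists of equal length. Without control replicate 1, 1173 unshared distal regions remained, and KD BCL9 replicates 1 and 2 covered 24.6% and 19.5% of them, against 23.5% for the held-out control library. Without control replicate 2 (1317 regions), the KD shares were 23.8% and 19.7%, against 24.1%, and without control replicate 3 (452 regions) they were 36.1% and 29.2%, against 39.6%. In each of these 3 choices KD replicate 2 lay below the held-out control, while KD replicate 1 lay above it in 1 choice and below it in 2. For shared distal regions the KD shares were 61.5% to 74.8% and the held-out control shares 58.1% to 76.6%. With 1 held-out library per choice there is no test of a change on knockdown.

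Signal at the unshared distal regions was low and, in the control BCL9 libraries, at or near the limit of the lists. The weakest listed pair held 7 and 5 tags in KD BCL9 replicates 1 and 2 and 5, 9 and 6 in control BCL9 replicates 1 to 3. At 9 or more tags, control BCL9 replicates 1 to 3 covered 3.76%, 56.7% and 46.3% of unshared distal regions. Shared distal regions gave 20.1%, 69.6% and 75.8%. The median of the strongest window, where one was present, was 10 and 9 tags in KD BCL9 replicates 1 and 2 and 5, 10 and 8 tags in control BCL9 replicates 1 to 3, against 15 and 15 in KD and 7, 12 and 15 in control libraries at shared distal regions. For pSTAT3 the medians at unshared distal regions were 8 and 7 tags in KD and 5, 7 and 7 in control libraries, against 20 and 22 in KD and 9, 11 and 19 in control libraries at shared ones. Each BCL9 and pSTAT3 library thus had weaker windows in the unshared group, while the CTCF library had a median of 5 tags in both groups.

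The 2 peaks of a pair stood farther apart in unshared distal regions. The median distance between them was 95 and 72 bp in KD BCL9 replicates 1 and 2 and 116, 110 and 87 bp in control replicates 1 to 3, against 77 and 67 bp in KD and 95, 80 and 67 bp in control libraries in shared distal regions. The difference averaged 18.8 ± 8.98 bp (SD, n = 5 libraries) and each of the 5 was above 0 (two-sided exact permutation of signs, p = 0.062, the lowest value that 5 libraries allow). The 5 libraries share positions and are not independent.

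Because tags differed between the groups, both were also split by the tags of control BCL9 replicate 3. Coverage by KD BCL9 replicate 2 with its list cut to equal length was 10.7% of 140 unshared distal regions with no window in control replicate 3, 9.96% of 823 with 6 to 7 tags, 13.4% of 628 with 8 to 10, 22.5% of 552 with 11 to 19 and 48.8% of 168 with 20 or more. Shared distal regions gave 44.3%, 35.6%, 44.1%, 54.8% and 79.7% in the same classes. In KD BCL9 replicate 1 the shares were 20%, 107 of 823 regions, 16.9%, 28.8% and 57.1% for unshared and 39.3%, 36.8%, 41.6%, 54.8% and 76.8% for shared distal regions. Unshared distal regions were thus covered less often in each class of tags, in both KD libraries.

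**Figure D2:**
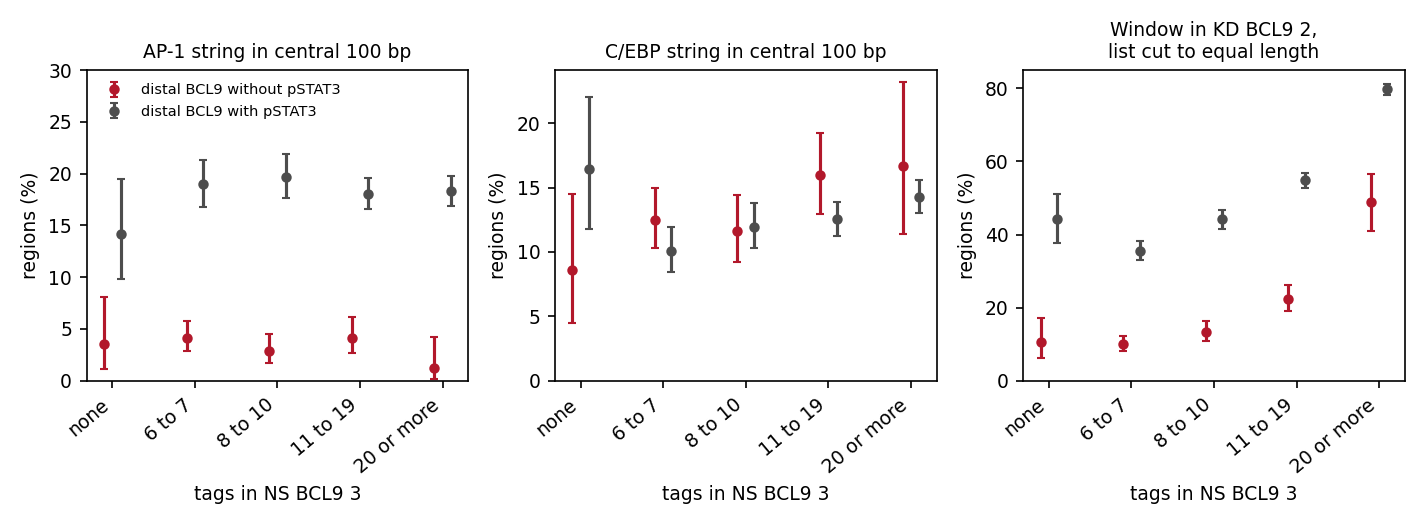
Share (%) of distal BCL9 regions without (red) and with (grey) a pSTAT3 region that held the AP-1 string, held the C/EBP string or had a window in the cut list of KD BCL9 replicate 2, by tags in control (NS) BCL9 replicate 3; bars are exact 95% intervals. Red lies below grey in all 5 classes for the AP-1 string (1.19% to 4.17%, against 14.2% to 19.7%) and for the KD window, but not for the C/EBP string.

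The DNA of the unshared distal regions held few AP-1 strings. AP-1, the dimer of Jun and Fos proteins, binds TGANTCA with C or G at N. This string was found in the central 100 bp of 82 unshared distal regions, or 3.55% (2.83% to 4.39%), against 18.5% of shared distal regions and a background of 14.3% of all control BCL9 regions. Relative to flanking windows at 500 and 1000 bp, that was 1.79-fold for unshared and 9.29-fold for shared regions. Of the flanks, 1.98% and 1.99% held it. The low share was not particular to distal regions. Promoter BCL9 regions without a pSTAT3 region held the string in 0.469% (3 of 639), and those with one in 13.2%.

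Within single libraries, the AP-1 string stood in 3.78% and 3.59% of the windows of KD BCL9 replicates 1 and 2 that lay in unshared distal regions, against 16.7% and 15.7% of those in shared distal regions. In control BCL9 replicates 1 to 3 the shares were 3.12%, 2.85% and 3.10% in unshared, against 14.6%, 14.2% and 15.2% in shared distal regions. The difference averaged -12.0 ± 0.627 points (SD, n = 5 libraries) and was negative in 5 of 5 (exact sign-flip permutation, p = 0.062, the lowest value that 5 libraries allow, and Benjamini-Hochberg adjusted over 20 strings p = 0.0962). It was present in each class of tags, where the share was between 1.19% and 4.17% in unshared and between 14.2% and 19.7% in shared distal regions. The 5 libraries share positions, and so the same DNA. The SD and p values of this and the following strings therefore do not measure independent replication.

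The C/EBP string, bound by leucine zipper factors of the CEBP family, was the most frequent of the factor strings named above. It was found in 304 unshared distal regions, or 13.2% (11.8% to 14.6%), 2.398-fold over the flanks, against 12.8% of shared distal regions, 2.44-fold, and a background of 12.1%. The difference within libraries was 0.88 ± 1.25 points (SD, n = 5 libraries), positive in 4 of 5 (exact sign-flip permutation, p = 0.188, adjusted p = 0.25). With only regions that had no window in any control pSTAT3 library it was -0.919 points, so its sign depended on the choice of regions. The string was in 18.3% (14.1% to 23.1%) of the 306 unshared distal regions bound in all 3 control libraries and in 12.4% (10.96% to 13.9%) of those bound in 2. It was in 16.5% of those with windows in both KD BCL9 libraries and 10.5% of those with windows in neither. Of the 290 with no pSTAT3 window, 7.93% held it. This pattern was not particular to C/EBP. TEAD and RUNX strings were each in 16.01% of regions bound in all 3 control libraries, against 10.27% and 11.17% of those bound in 2. Of the 290, 7.24% held the TEAD and 7.59% the RUNX string. The AP-1 string went the other way between 3 and 2 control libraries (2.94% against 3.64%), and was in 1.72% of the 290.

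TEAD factors, the DNA-binding partners of YAP and TAZ, bind GGAATG, which was present in 11.03% of unshared distal regions (1.90-fold over flanks), against 13.3% of shared ones (2.35-fold) and a background of 12.3%. The RUNX string was present in 11.8% (1.77-fold), against 13.4% (1.91-fold) and a background of 12.4%. Both were lower in unshared distal regions in 5 of 5 libraries, by -1.05 ± 0.628 points for TEAD and -1.12 ± 0.85 points for RUNX (SD, n = 5; exact sign-flip permutation, adjusted p = 0.0962 for each).

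GRHL proteins, which keep epithelial enhancers accessible, were represented by a string found in 49 unshared distal regions, or 2.12% (1.57% to 2.79%; 3.32-fold over flanks), against 1.42% of shared ones (1.17% to 1.70%; 2.18-fold) and a background of 1.53%. It was higher in unshared distal regions in 5 of 5 libraries, by 1.15 ± 0.287 points (SD, n = 5; exact sign-flip permutation, adjusted p = 0.0962). The AP-2 string, bound by the TFAP2 factors of epithelium, was in 6.71% (3.16-fold), against 6.51% of shared distal regions (3.06-fold) and a background of 6.62%. It was added after seeing the data, so its folds are descriptions.

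The zinc finger string (CCTNCC with C, G or T at N) is part of a motif that the paper reports at shared peaks. It was in 33.4% of unshared distal regions (1.19-fold over flanks), against 32.4% of shared ones (1.16-fold) and a background of 34.0%. Within libraries the difference was 1.09 ± 0.568 points, above 0 in 5 of 5 (SD, n = 5; exact sign-flip permutation, adjusted p = 0.0962). The longer STAT3, TCF/LEF, REL and C/EBP-ATF composite strings were rare by count. The STAT3 string (TTCCNGGAA) was in 7 unshared distal regions, or 0.303% (0.122% to 0.623%), 1.12-fold over flanks, against 0.653% of shared ones, 2.36-fold, and a background of 0.568%. The TCF/LEF string (CTTTGAT), to which β-catenin is tethered, was in 1.64% (1.13-fold), against 1.39% (0.962-fold) and a background of 1.42%. The REL string, for NF-κB, was in 1.34% (2.64-fold), against 1.48% and a background of 1.45%. The C/EBP-ATF composite was in 1.25% (6.11-fold), against 1.54% (4.42-fold) and a background of 1.38%. This composite was added after seeing the data and is among the words most enriched over these same flanks. Its fold is therefore a description and not comparable with that of strings fixed beforehand. A string match describes these letters in this window and is not a measured binding site.

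**Figure D3:**
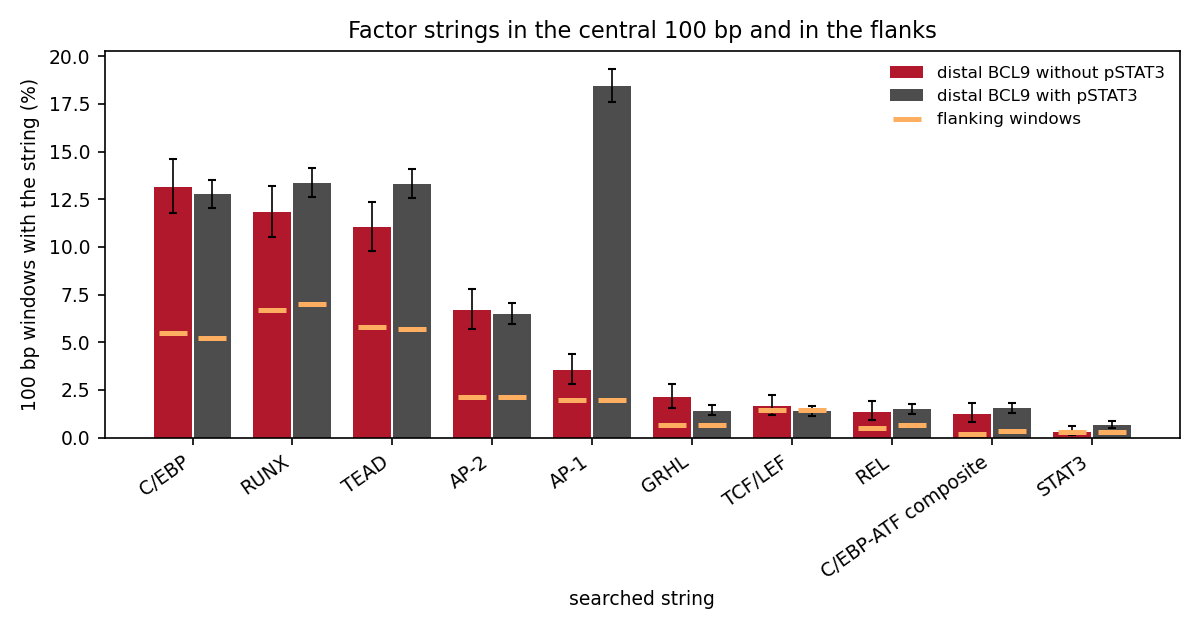
Share (%) of central 100 bp windows holding each searched string, for distal BCL9 regions without (red, n = 2311) and with (grey, n = 8113) a pSTAT3 region; bars carry exact 95% intervals and orange ticks mark the flanking windows. The AP-1 bars stand at 3.55% and 18.5%, the C/EBP bars at 13.2% and 12.8%.

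Counted together over the C/EBP, TEAD, RUNX, GRHL, AP-2 and AP-1 strings, 1374 unshared distal regions (59.5%) held none, 768 held 1, 157 held 2 and 12 held at least 3, and 48.0% of shared distal regions held none. C/EBP and AP-1 strings stood together in 3 unshared (0.130%) and 153 shared distal regions (1.89%), beside AP-1 shares of 3.55% and 18.5%. Pairing was not tested apart from these AP-1 shares. Joint counts were not taken over all control BCL9 regions. The 8-base word most enriched over the flanks by an order score was TTGCACAA, a form of the C/EBP string. It was in 44 unshared distal regions (1.90%, 5.33-fold), against 2.35% of shared ones. TGATGCAA, the composite string above, was in 29 (1.25%, 6.11-fold), against 1.54% of shared ones. These words were ranked on these same regions and flanks, so their folds are descriptions. The median GC content of the central 100 bp was 47% in both groups.

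**Figure D4:**
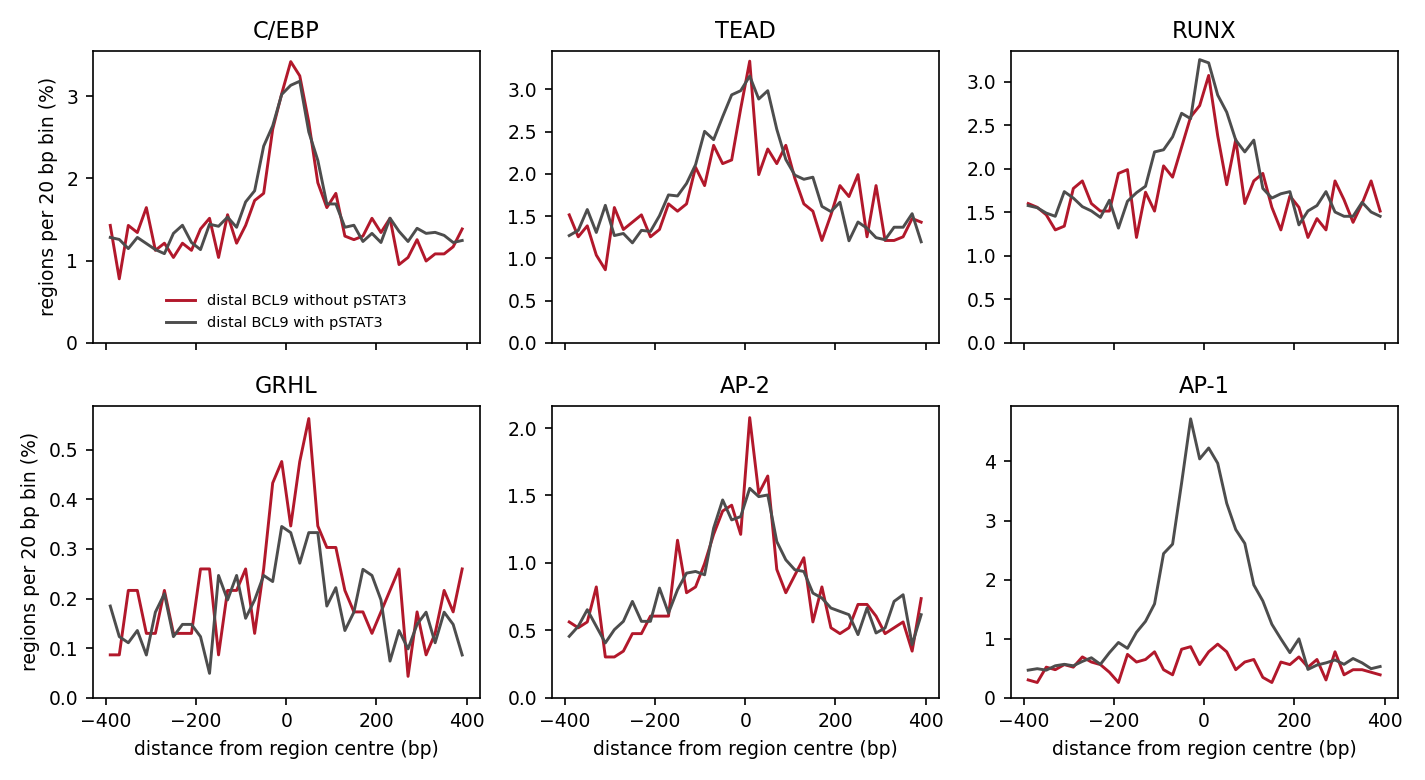
Share (%) of distal BCL9 regions without (red) and with (grey) a pSTAT3 region that held each of 6 strings in 20 bp bins, by distance (bp) from the region centre. C/EBP in red reached 3.42% in the bin from 0 to 20 bp, while AP-1 in red stayed between 0.563% and 0.909% within 60 bp and AP-1 in grey reached 4.72%.

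Unshared distal regions had the same kinds of genomic place as shared ones. Introns of protein-coding genes held 991 (42.9%, against 42.8% of shared distal regions), the space between genes 803 (34.7% in both), introns of other genes 329 (14.2%, against 16.3%) and coding exons 28 (1.21%, against 0.592%). The median distance to the nearest protein-coding TSS was 37586 bp, against 38876 bp. A window of CTCF, the insulator and loop anchor protein, was present in 15.5% (359 regions), against 19.8% of shared distal regions and a background of 19.7%, in 1 library without replicates. With the CTCF list cut to equal length the shares were 1.43% and 0.394%.

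Many unshared distal regions lay near shared ones, with 754 (32.6%) within 10 kb and 335 (14.5%) within 1 kb of one, while 758 (32.8%) were over 100 kb from all of them. Another unshared distal region lay within 10 kb of 349 (15.1%).

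The central 32 bases of 147 unshared distal regions, or 6.36% (5.40% to 7.43%), stood at more than 1 place in GRCh37, against 2.98% of shared distal regions, a background of 3.74%, and 11.01% of the flanks of unshared regions. Reads from such copies cannot be told apart by those bases, and no source used here says how they were placed. The share was 13.4% (39 of 290) among unshared distal regions without a window in any pSTAT3 library and 5.34% (108 of 2021) among those with one. Among the 2164 unshared distal regions with single-copy centres, the KD BCL9 shares were 41.3% and 61.6% and the AP-1 share 3.65%, against 18.4% for AP-1 in single-copy shared distal regions.

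Only 4 unshared distal regions had a window in all 5 BCL9 libraries and in no pSTAT3 library, and the centres of all 4 stood at more than 1 place in the genome. The central 100 bp of 3 of them, 5′ to 3′ on the plus strand of GRCh37, are shown because such regions come nearest to the description of BCL9 without pSTAT3, and they hold none of the 6 strings. The region near PDPR, a regulatory subunit gene of pyruvate dehydrogenase phosphatase, had 13 and 19 tags in KD and 9, 17 and 16 in control BCL9 libraries, with 2 copies. The region in an intron of SLC19A1, the reduced folate carrier, had 24 and 7 tags in KD and 6, 10 and 22 in control libraries, with 3 copies. The region near DMRT3, a transcription factor gene, had 12 and 14 tags in KD and 6, 11 and 16 in control libraries, with 5 copies and 63 tags in the CTCF library. At these 3 regions each KD value thus lay inside the range of the control values, except 1 above it at the PDPR region and 1 above it at the SLC19A1 region.
PDPR region, chr16:70099897-70099996: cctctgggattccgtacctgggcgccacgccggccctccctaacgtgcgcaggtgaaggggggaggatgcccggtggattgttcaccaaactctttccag
SLC19A1 region, chr21:46947368-46947467: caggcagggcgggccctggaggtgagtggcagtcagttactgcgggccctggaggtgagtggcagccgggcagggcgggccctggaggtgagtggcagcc
DMRT3 region, chr9:998559-998658: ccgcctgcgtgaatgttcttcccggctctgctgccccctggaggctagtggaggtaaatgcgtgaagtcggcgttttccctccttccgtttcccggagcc

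The 12 regions with the strongest control BCL9 signal were ranked by mean percentile over the 3 control libraries. None had a window in control pSTAT3 replicates 1 or 2, which covered only 12.03% and 5.93% of all unshared distal regions. Control pSTAT3 replicate 3 had a window in most of the 12, with 4 to 19 tags, against 51.1% of all unshared distal regions. All but the PDPR region had a window in at least 1 KD pSTAT3 library. All 12 had a window in both KD BCL9 libraries, against 31.9% of all unshared distal regions and 63.9% of all control BCL9 regions. The strongest, chr2:101944246-101944584, lay 19083 bp upstream of RNF149, a ubiquitin ligase gene. It had 60 and 32 tags in KD BCL9 replicates 1 and 2, against 18, 29 and 69 in control replicates 1 to 3, so the KD values lay inside the control range. KD pSTAT3 replicates gave 16 and 13 tags there, and control pSTAT3 replicate 3 gave 19.

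The PCDHB1 region printed above had 26 and 16 tags in KD and 20, 17 and 27 in control BCL9 libraries, and 93 tags in the CTCF library. The NEMP2 region printed above had 22 and 14 tags in KD and 10, 20 and 22 in control libraries. The MXRA7 region had 39 and 48 tags in KD and 15, 15 and 36 in control libraries, with no pSTAT3 window but 5 tags in KD pSTAT3 replicate 2, and both KD values lay above the 3 control values. Tags are not corrected for the depth of a library, and no test was made of single regions.

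A region 10658 bp from the TSS of NADK, which makes NADP, had 13 and 34 tags in KD and 16, 28 and 31 in control BCL9 libraries, with 42 tags in the CTCF library and 2 copies of its centre. The gene nearest to another was CTNNB1, which encodes β-catenin, at 316566 bp. That region had 16 and 12 tags in KD and 17, 15 and 24 in control BCL9 libraries. The region nearest TBL1XR1, a subunit of NCoR corepressor complexes, lay 369556 bp from its TSS, with 13 and 23 tags in KD and 8, 22 and 30 in control libraries. At both, the KD values overlapped the control values. The other 5 lay nearest PDCD2 (6 copies), WSB1, PRICKLE1, a planar cell polarity gene, PDPR and PTPN3, a tyrosine phosphatase gene.

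Of the other regions printed above, the ROBO1 region had 39 and 31 tags in KD and 14, 12 and 33 in control BCL9 libraries, and the PDHX region 12 and 15 in KD and 11, 13 and 14 in control libraries. The STIM2 region, nearest to the gene of a calcium sensor of the endoplasmic reticulum, had 15 and 36 tags in KD and 6, 13 and 12 in control libraries. The SLC39A11 region had 57 and 31 tags in KD and 7, 14 and 24 in control libraries. Both KD values exceeded all 3 control values at the STIM2 and SLC39A11 regions. The SLC39A11 region also had 40 and 79 tags in the KD pSTAT3 libraries and 59 in control pSTAT3 replicate 3.

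Of 19807 protein-coding genes, 9.95% had an unshared distal region within 50 kb of a TSS and 20.5% a shared one. The gene lists below were chosen with results of these data known and are described by their counts. Of 14 YAP, TAZ and TEAD genes, which carry out Hippo pathway signalling, 6 (42.9%) had one and 7 (50.0%) had a shared distal region. WWTR1, which encodes TAZ, had 6 unshared distal regions, and 2 of these had centres with 165 and 1856 copies. Their KD BCL9 replicate 2 values were 9, 14, 6 and 7 tags at 4 of the regions and no window at 2, while KD BCL9 replicate 1 had no window at any of them. Near ANKRD1, a YAP target gene, chr10:92690006-92690203 had 11 and 5 tags in KD and 25 and 11 in control BCL9 replicates 2 and 3. The second ANKRD1 region, chr10:92691210-92691369, had no window in either KD BCL9 library and 11 and 12 tags in control BCL9 replicates 2 and 3. A region 6595 bp upstream of AMOTL2, which encodes a YAP-binding scaffold, had 23 and 23 tags in KD and 5 and 31 in control BCL9 replicates 1 and 3. CCN2, TEAD1 and YAP1 each had 1 region.

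Of 20 basal epithelial genes 7 had an unshared distal region (35%), namely EGFR, ITGB4, MYLK, TP63, DST, LAMA3 and LAMB3, and 80.0% had a shared one. An intronic region of TP63, the regulator of basal cell identity, had 27 and 8 tags in KD and 14 and 15 in control BCL9 replicates 2 and 3. An intronic region of EGFR, the epidermal growth factor receptor gene, 1567 bp from its TSS, had 8 and 11 tags in KD and 5, 11 and 7 in control BCL9 libraries. KD and control values overlapped at both. The other regions of TP63 and EGFR, and those of LAMA3, LAMB3 and DST, had no window in either KD BCL9 library. Those of MYLK and ITGB4 had. At MYLK, 1 region had 22 and 5 tags in KD and 12 and 8 in control BCL9 replicates 2 and 3. The other had 11 and 5 in KD and 9 and 16 in these control replicates. Near ITGB4, 1 region had 9 and 27 tags in KD and 16 and 6 in control BCL9 replicates 2 and 3. The other had 10 tags in KD replicate 2, no window in KD replicate 1, and 5 and 6 in control replicates 1 and 3.

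Growth factor signalling genes gave 7 of 20 (35%). SPRED2, an inhibitor of the Ras-MAPK route, had 3 regions with 6 to 14 tags in KD BCL9 libraries, and DUSP6, a phosphatase of ERK, had 1 with 7 and 19 tags in KD and 13, 10 and 13 in control libraries. EGFR, IGF1R and MET are receptors, and PDGFA and PDGFB are ligands.

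The surface and matrix genes whose expression the study examined gave 3 of 9, namely ITGB4, FZD7 and ITGB3, while CD44, MUC1, ITGA2, ITGA4, ITGAV and MMP16 had none. Shared distal regions were present for 6 of the 9 (66.7%). There were 12 near ITGB3, 9 near ITGB4, 7 near CD44, 4 near ITGA2 and 1 each near ITGAV and MUC1. The unshared ITGB3 region, in an intron of this integrin gene 1209 bp from its TSS, had 18 and 9 tags in KD BCL9 replicates 1 and 2 and 10 and 14 in control replicates 1 and 3, and its centre had 80 copies in the genome. The same region had 5 tags in control pSTAT3 replicate 3 and no other pSTAT3 window. The FZD7 region, 36975 bp upstream of this Wnt receptor gene, had 12 tags in KD BCL9 replicate 2 and no window in KD replicate 1, and 5 and 21 tags in control replicates 1 and 3. For pSTAT3 it had 4 and 9 tags in KD replicates 1 and 2 and 4 in control replicate 3.

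**Figure D5:**
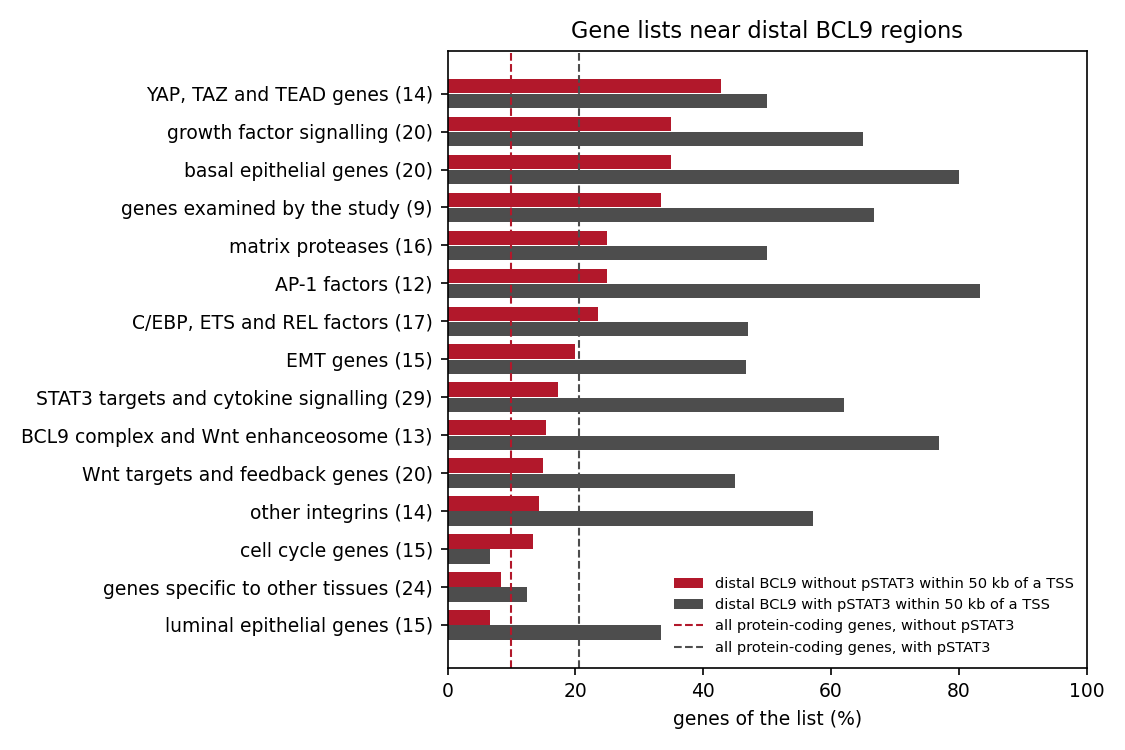
Share (%) of the genes of 15 lists (number of genes in brackets) with a distal BCL9 region without (red) or with (grey) pSTAT3 within 50 kb of a TSS; dashed lines give the same shares of all protein-coding genes, 9.95% and 20.5%. The YAP, TAZ and TEAD list had the highest red share, 42.9%, and the luminal epithelial list the lowest, 6.67%.

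Lists tied to BCL9 and STAT3 gave 15.0% to 17.2%. Of 13 genes of the BCL9 complex and Wnt enhanceosome 2 (15.4%) had an unshared distal region, TCF7 and TCF7L2, both β-catenin partners on DNA, and 76.9% had a shared one. Of 20 Wnt targets and feedback genes 3 had one (15.0%), APCDD1, FZD7 and WNT10A, and of 29 STAT3 target and cytokine genes 5 (17.2%), FOS, LCN2, LIF, MCL1 and SBNO2. The MCL1 region, near this anti-apoptotic gene, had 6 tags in KD BCL9 replicate 2, no window in KD replicate 1, 11 and 7 tags in control replicates 2 and 3, and no pSTAT3 window in any library. The LIF region, near the gene of this STAT3-activating cytokine, had 8 tags in KD replicate 2, no window in KD replicate 1, 5 and 9 tags in control replicates 1 and 3, and no pSTAT3 window either.

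Other lists were AP-1 factors with 3 of 12 (FOS, FOSL2 and MAFF), C/EBP, ETS and REL factors with 4 of 17 (EHF, ELF3, REL and RELB) and matrix proteases with 4 of 16 (MMP2, TIMP3, ADAM17 and PLAU). Other integrins gave 2 of 14 (ITGA10 and ITGB2), cell cycle genes 2 of 15 (CDKN1A and MCM5), luminal epithelial genes 1 of 15 (EPCAM) and genes specific to other tissues 2 of 24 (PRM1 and PTPRC). Near MMP2, the gelatinase gene, chr16:55504522-55504740 had 24 and 14 tags in KD and 11 and 17 in control BCL9 replicates 2 and 3. At EHF, an epithelial ETS factor gene, the region 1750 bp from its TSS had 16 and 18 tags in KD and 20 and 15 in control BCL9 replicates 2 and 3.

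The genes with most unshared distal regions within 50 kb were DDIT4, an inhibitor of mTORC1, and THBS1, a matrix glycoprotein gene, with 7 each, the second sharing its count with its neighbour FSIP1. WWTR1 had 6 and CTNNA1, which encodes α-catenin of the adherens junction, 5. Next came 11 genes tied at 4, among them CTNNBIP1, an inhibitor of the β-catenin and TCF contact, and ASAP2, MRTFA, PDGFC, RAI1 and WWC1. Around DDIT4 there were also 18 shared distal regions, around THBS1 3 and around CTNNA1 5.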

How the data were processed

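ChIP-exo libraries of DCIS.COM cells were analysed from the lists deposited by the authors, 1 list per library. The deposited score is a signal that equals whole tags (tolerance 0.01) after division by the unit step of each library, and the deposited peak positions are given on hg19. The lists carry the tag of a peak-pairing tool, and the study's methods name ChExMix. The submitters' processing notes name bcl2fastq and hg19, and no source used here names the aligner. IgG data were not analysed here.

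The members, gene lists and strings were chosen with earlier results of these data known. Windows of 100 bp round midpoints were merged per antibody and set against 78577 protein-coding TSSs of GENCODE v44lift37. A region's tags are those of its strongest window, and its centre is taken from the control windows. The central 100 bp and 4 flanks were searched for 20 strings, on both strands. The AP-2 and composite strings, lists cut for scoring only, classes of tags and 32-base copies were added after seeing the data. Strings were counted separately also where their matches overlapped.

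Genes named were the nearest genes of the 12 strongest members in 3 control libraries, the genes with most members within 50 kb, all 9 genes examined by the study and up to 6 genes per other list. Genes past 6 in a list, and those nearest to printed sequences, were named after their values were seen. Exact permutation tests used scipy 1.17.1 and simulated data checked the scripts. Python 3.11.15, numpy 2.4.6, pandas 2.3.3, pysam 0.24.0 and samtools 1.23.1 were used. The values of 1 gene list and 1 sequence are not reported in the text.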

Additional observations from a re-analysis of the deposited data

Results flagged for a closer look

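The KLF string (CCACACCC or CCGCCCC) differed between unshared and shared distal regions by -0.728 points in control BCL9 replicate 2, far from the other 4 BCL9 libraries, which gave -0.271, -0.347, -0.281 and -0.278 points. Over 23 groups of values looked at for a sample that stands apart, 1 was found, where chance gives about 1 in 20.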

How the results depend on the processing

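The number of unshared distal regions depended on the lists that chose them. It was 2311, and became 3680 with equal list length, 827 with no window of any control pSTAT3 library, 945 for BCL9 and pSTAT3 regions both required in all 3 control libraries, and 452 to 4957 when 1 control library was left out (452 without control BCL9 replicate 3, 1173 without BCL9 replicate 1, 1317 without BCL9 replicate 2, 4279 without pSTAT3 replicate 1, 4957 without pSTAT3 replicate 3). The KD BCL9 minus KD pSTAT3 share of -13.4 points reversed to 16.2 when lists were cut to equal length for scoring, and to 31.6 with equal list length throughout. Both cuts fell at higher tag counts in the KD pSTAT3 lists than in the KD BCL9 lists. The difference ranged from -23.7 (without KD BCL9 replicate 2) to -3.05 (without KD BCL9 replicate 1). It was -5.31 without control BCL9 replicate 3 and -6.77 for regions in all 3 control libraries of each antibody. With regions both chosen and scored at 9 or more tags it was -0.76. With the replicate block it was -13.4 (p = 0.5, exact paired sign flip); the replicate numbers did not pair the libraries (r = 0.0136 between the antibodies' replicate differences over 11623 regions). The CTCF share of 15.5% was 23.1% with 200 bp windows, 12.7% at 50 bp or more shared, 3.43% at 9 tags, 0.516% with equal list length, 1.43% with cut lists for scoring, 20.8% for regions in all 3 control libraries of each antibody, and 15.1% to 17.5% without 1 library. The C/EBP difference reversed to -0.919 with no window of any control pSTAT3 library; the cause was not tested. The KD BCL9 share difference (-45.0 with no window of any control pSTAT3 library, -10.7 for regions in all 3 control libraries of each antibody, -36.1 to -24.7 without 1 library), the AP-1 difference (-14.9 to -10.4) and the peak distance (12.1 to 22.3 bp) kept their direction under all alternatives run, and the exact p could not pass 0.05 in any of them.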
